A study of Arabidopsis thaliana with 40 samples.

Results

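The data described here are RNA from heavy polysomes of K48M seedlings of Arabidopsis thaliana, taken after submergence and after darkness alone. K48M is a line in the Col-0 background that overexpresses SnRK1.1 K48M, a form of the kinase subunit SnRK1.1 (KIN10) with an altered catalytic lysine. Its 4 libraries, of 40 samples in the whole series, were chosen by genotype, fraction and treatment: 2 came from whole 9-day-old seedlings kept 3 h under water in the dark, and 2 from seedlings kept 3 h in the dark in air, all at room temperature. Each condition had 1 library in each of 2 library sets, named sets 1 and 2 here, which the series text describes as independent biological repeats. For comparison, heavy polysome RNA of Col-0, the unmodified background, had 2 submerged and 2 dark libraries from the same sets, and total mRNA of K48M had 1 submerged and 1 dark library that could be used. The sources used here do not name the promoter of the transgene or the number of independent lines.

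Heavy polysomes are mRNAs that carry many ribosomes, so their RNA reports which transcripts were being translated in bulk and in what proportion. SnRK1 is the plant relative of yeast SNF1 and animal AMPK, a kinase that is active when carbon or energy runs short and that promotes catabolic gene expression; its substrates include translation factors. Flooding cuts the supply of oxygen, and plants are known to respond by switching to fermentation under the control of group VII ethylene response factors, by breaking down sucrose, and by limiting costly processes such as the synthesis of ribosomes. The comparison of submerged with dark seedlings holds the light condition constant and so addresses the response to being under water.

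The 4 libraries held 4512370 and 4438914 gene reads in submerged seedlings and 4352054 and 4730575 in dark seedlings. Ribosomal RNA genes took 0.87% and 13.12% of the reads in submerged libraries 1 and 2, against 6.46% and 2.81% in dark libraries 1 and 2. Levels are given as CPM, reads of a gene relative to all gene reads after trimmed-mean (TMM) scaling, and fold changes as log2 of submerged over dark with the standard error of the fit. The scaling removes any shift shared by all transcripts, so the overall loading of mRNA on polysomes was not measured. The 6 green-shoot markers summed to 11290 and 6675 CPM in submerged libraries and to 16391 and 7747 CPM in dark libraries, most of it from RBCS1A and CAB2. The 5 root markers summed to 75.3 and 108 CPM in submerged libraries and to 95.1 and 128 CPM in dark libraries. The floral markers AG and AP3 and the seed storage marker CRA1 had 7, 5 and 7 reads over all 4 libraries, so both organs of a whole seedling were represented and flowers and seeds were near 0. In whole seedlings, fewer cells of a type and less of an RNA per cell cannot be told apart.

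KIN10, the gene whose K48M form is overexpressed, had 393 and 419 CPM in submerged K48M polysomes, against 241 and 248 CPM in dark ones. In Col-0 polysomes it had 29.9 and 28.5 CPM under submergence and 30.1 and 31.2 CPM in the dark. The K48M libraries all lay far above those of Col-0, and in dark polysome RNA the difference was a log2 value of 3.00 ± 0.22 (SE, K48M over Col-0, edgeR adjusted p = 6.19e-05), with KIN10 the 1 gene of 18794 called (0.00532%). The counts do not separate transcripts of the transgene and of the native gene. Within K48M polysomes KIN10 was higher under submergence by a log2 value of 0.73 ± 0.20 (edgeR adjusted p = 0.025), a call that was lost without dark library 1 (0.134), dark library 2 (0.194), submerged library 1 (0.159) or submerged library 2 (0.0991), and without the set term (0.267). The genes of the other kinase subunit, KIN11 (20.4 and 28.5 CPM submerged, 14.9 and 26.7 CPM dark), and of the translation factor eIFiso4G1 (69.1 and 59.9 CPM submerged, 54.5 and 48.5 CPM dark) were not called, at adjusted p = 0.564 and 0.364.

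Submergence changed the polysomal RNA of K48M seedlings widely. Of 18794 genes tested, 2668 (14.2%) passed an adjusted p of 0.05 in edgeR's quasi-likelihood test, 1474 (7.84%) of them higher and 1194 (6.35%) lower under submergence. The counts called in each gene list below are to be read beside these shares of all genes. Higher genes had a median log2 change of 1.39, with 432 of them changed at least 4-fold, and lower genes a median of -1.14, with 161 changed at least 4-fold. The calls were made from these same libraries, so their direction and overlap by library describe the called genes and are no separate support. All 1474 higher and all 1194 lower calls had the same direction within both library sets. In 1408 of the higher and 1066 of the lower calls the submerged libraries did not overlap the dark ones, against 24.3% of all genes with both submerged libraries higher and 22.9% with both lower. Leaving out 1 library lowered the numbers to 706 higher and 383 lower without dark library 1, 609 and 307 without dark library 2, 757 and 204 without submerged library 1, and 899 and 493 without submerged library 2.

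Among clearly detected genes, the largest rises included heat shock proteins, an enzyme of fermentation and a calcium sensor. PDC1 (AT4G33070), a pyruvate decarboxylase of ethanol fermentation, had 617 and 717 CPM in submerged libraries, against 8.95 and 6.45 CPM in dark libraries (log2 6.47 ± 0.52, adjusted p = 5.89e-06). CML38 (AT1G76650), a calmodulin-like protein, had 143 and 191 CPM in submerged libraries, against 1.9 and 2.58 CPM in dark libraries (log2 6.25 ± 0.29, adjusted p = 1.42e-07). NIP2;1 (AT2G34390), an aquaporin-like channel of the NIP family, had 65.2 and 123 CPM under submergence, against 1.08 and 0 CPM in the dark (log2 7.70 ± 0.57, adjusted p = 5.5e-06). For each of them the libraries lay far apart, and only the size of the NIP2;1 change depended on 1 library, with a log2 value of 12.51 without dark library 1 and 5.83 without dark library 2.

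Several of the 12 largest rises were of genes known by little more than a family name. AT3G29970, a B12D family protein, had 72.7 and 11.9 CPM in submerged libraries, against 0.271 and 0.369 CPM in dark libraries, where 3 reads were counted, and its ratio of 129 had a 95% counting interval of 43.7 to 627. AT5G36925 had 11.6 and 9.49 CPM in submerged libraries, against 0.271 and 0 CPM in dark libraries, where 1 read was counted (ratio 96.1, counting interval 16.8 to 3832). BPS3 had 31.5 and 15.5 CPM in submerged libraries, against 0.542 and 0.184 CPM in dark libraries, where 3 reads were counted (ratio 71.6, counting interval 24.2 to 350). The intervals show how little the dark level fixes the size of these rises, although both submerged libraries exceeded both dark ones in each. AT5G10040 had 185 and 67.3 CPM under submergence, against 1.9 and 0.369 CPM in the dark (log2 6.81 ± 0.56, and 7.68 without dark library 1). AT2G17850, of the rhodanese family, had 341 and 225 CPM under submergence, against 8.13 and 1.84 CPM in the dark (log2 6.02 ± 0.47, and 6.75 without dark library 1).

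The largest falls were smaller than the largest rises and included regulators of elongation growth and enzymes of root specialised metabolism. PRE1, a helix-loop-helix protein that promotes cell elongation, had 0.858 and 0.431 CPM in submerged libraries, against 19.3 and 5.9 CPM in dark libraries (log2 -4.15 ± 0.50, adjusted p = 0.000142). IAA29, a repressor of auxin signalling, had 1.72 and 3.45 CPM in submerged libraries, against 30.9 and 35.4 CPM in dark libraries (log2 -3.69 ± 0.32, adjusted p = 9.73e-06). ANNAT4, a calcium-dependent membrane-binding annexin, had 2.15 and 2.8 CPM in submerged libraries, against 26 and 45.1 CPM in dark libraries (log2 -3.82 ± 0.32, adjusted p = 7.45e-06). In all of these genes both submerged libraries lay below both dark ones, and no left-out library ended the call. The other 9 of the 12 falls were CYP71A16 (-3.98), AT4G11190 (-3.62), RL3 (-3.58), THAS1 (-3.55), AT1G14960 (-3.43), AT5G46890 and AT3G57010 (both -3.29), AT5G45950 (-3.24) and AT4G11210 (-4.24). THAS1 and CYP71A16 belong to root triterpene metabolism (thalianol and marneral), and AT4G11190 and AT4G11210 are annotated as dirigent-like. AT4G11210 lost its call without dark library 2 (log2 -3.26, adjusted p = 0.0664) and had a log2 value of -4.87 without dark library 1. The change of AT4G11190 was -2.95 and -4.22 without submerged library 1 and 2, that of THAS1 -4.7 and -2.96, and that of AT5G45950 -2.42 and -4.33. AT3G57010 was between -5.52 (without submerged library 1) and -2.56 (without submerged library 2).

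**Figure D1:**
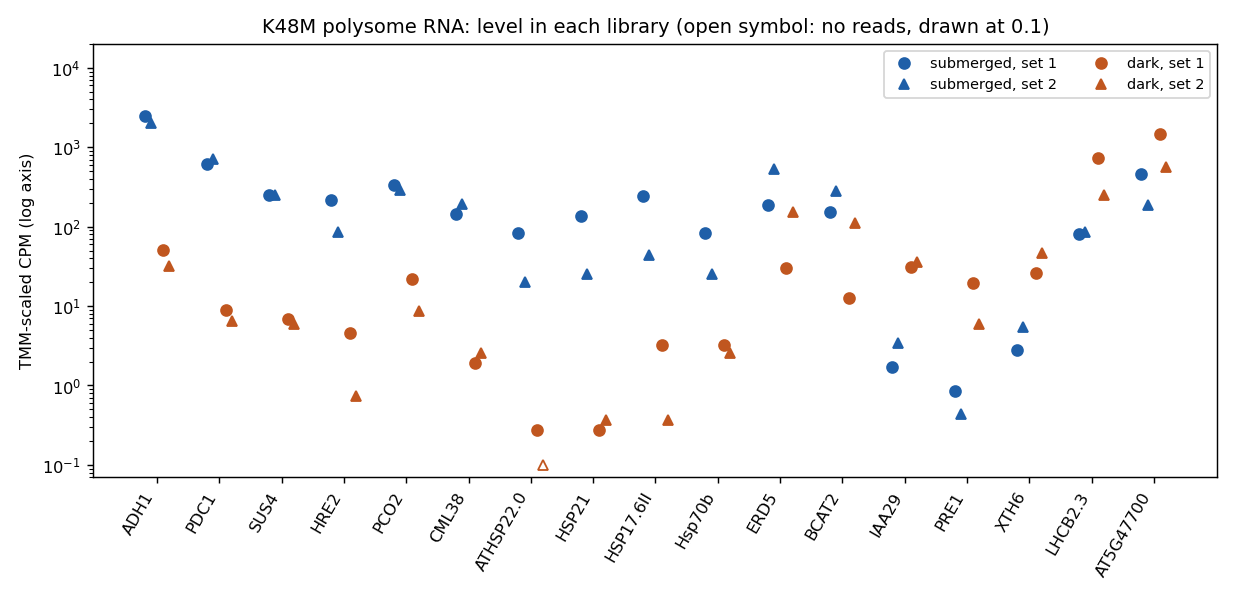
Level of 17 genes in each of the 4 K48M polysome libraries, in TMM-scaled CPM on a log axis; blue symbols are submerged libraries and orange ones dark libraries, circles set 1 and triangles set 2, and an open symbol is a library with no reads. ADH1, PDC1 and SUS4 sit at 248 to 2468 CPM in submerged libraries and at 50.7 CPM or lower in dark libraries, while IAA29, PRE1 and XTH6 sit lower in both submerged libraries.

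Most enzymes of fermentation and sucrose breakdown rose. Of 11 genes listed for fermentation and sucrose breakdown, 10 passed the filter on low counts and 7 were higher under submergence, none lower (edgeR; at an unadjusted p under 0.05, 7 were higher and 1 lower, and DESeq2 called 7 and 0), with a list median of 2.72 against -0.01 for all genes. The reads of the list made up 0.542% and 0.593% of all nuclear reads outside rRNA in submerged libraries, against 0.0328% and 0.0449% in dark libraries. The 2 called members with the largest change, PDC1 and ADH1, are shown with the 250 bases upstream of their annotated start, as these hold the motif core AAACCA that is known for low-oxygen promoters. Sequences are from RefSeq, assembly TAIR10.1, 5′ to 3′ on the strand of the gene. Capitals mark AAACCA on either strand and, in ADH1, the G-box CACGTG.

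PDC1, chr4:15954804-15955053, minus strand: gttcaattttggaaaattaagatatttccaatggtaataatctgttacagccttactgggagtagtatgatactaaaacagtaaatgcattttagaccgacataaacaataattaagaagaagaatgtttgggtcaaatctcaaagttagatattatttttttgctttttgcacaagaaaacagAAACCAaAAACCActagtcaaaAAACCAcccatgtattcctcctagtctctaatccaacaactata
ADH1, chr1:28975005-28975254, plus strand: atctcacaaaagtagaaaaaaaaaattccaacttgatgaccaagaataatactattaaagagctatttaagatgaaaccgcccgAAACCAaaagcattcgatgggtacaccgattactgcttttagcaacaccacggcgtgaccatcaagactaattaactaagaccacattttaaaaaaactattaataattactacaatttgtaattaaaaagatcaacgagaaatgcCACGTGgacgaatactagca

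The PDC1 window holds AAACCA 3 times, and the ADH1 window holds it 1 time together with 1 G-box. AAACCA was found on 1 or the other strand in 50% of the 10 windows of the fermentation list, in 34% of those of the 50 genes of the authors' core hypoxia list, in 27.5% of those of all genes called higher and in 27.6% of the 18272 windows of tested genes. CACGTG was found in 20%, 18%, 7.72% and 7.31% of the same windows. A short motif of this kind is a description of the sequence and not a site.

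ADH1 (AT1G77120), the alcohol dehydrogenase that turns acetaldehyde into ethanol, had 2468 and 2013 CPM in submerged libraries, against 50.7 and 32.2 CPM in dark libraries (log2 5.77 ± 0.34, adjusted p = 6.75e-07). SUS4 and SUS1, the sucrose synthases that cleave sucrose with little use of ATP, had 252 and 248 CPM (SUS4) and 623 and 877 CPM (SUS1) under submergence, against 6.78 and 5.9 CPM (SUS4) and 46.9 and 42.2 CPM (SUS1) in the dark, with log2 changes of 5.33 ± 0.32 and 4.05 ± 0.31. AlaAT1, an alanine aminotransferase that stores carbon and nitrogen as alanine under low oxygen, had 849 and 620 CPM in submerged libraries, against 84.6 and 93 CPM in dark libraries (log2 3.04 ± 0.24). None of these ranges overlapped. PDC2 had 224 and 261 CPM in submerged libraries, against 32.5 and 65.8 CPM in dark libraries (log2 2.40 ± 0.26), and the lactate dehydrogenase AT4G17260 had 47.8 and 59.9 CPM, against 23 and 15.3 CPM (log2 1.52 ± 0.33, adjusted p = 0.00765). The call of AT4G17260 was lost without dark library 2 (0.13) or submerged library 2 (0.078). The aldehyde dehydrogenases ALDH2B4 (108 and 103 CPM submerged, 87.8 and 85.9 CPM dark) and ALDH2B7 (11.8 and 13.4 CPM submerged, 19 and 28.9 CPM dark) were not called, at adjusted p = 0.394 and 0.0727.

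Of 17 genes of glycolysis, 5 were higher and 2 lower, and the list median was -0.07, next to -0.01 for all genes. PFK6 and PFK3, phosphofructokinases that commit sugar phosphate to glycolysis, had 88.2 and 59.7 CPM (PFK6) and 32.4 and 22.6 CPM (PFK3) in submerged libraries, against 11.4 and 8.48 CPM (PFK6) and 5.96 and 6.08 CPM (PFK3) in dark libraries. Their log2 changes were 2.90 ± 0.31 and 2.25 ± 0.37, and that of PFK3 was 1.63 without submerged library 1. FBA6, a fructose-bisphosphate aldolase, had 1269 and 568 CPM in submerged libraries, against 283 and 181 CPM in dark libraries (log2 1.91 ± 0.24, adjusted p = 0.000201). These enzymes were separated without overlap between the conditions. PPDK (1.27) and HXK2 (0.76) were also higher, and UGP1 (-0.91) and iPGAM1 (-0.67) lower. All but PFK6, PFK3 and FBA6 lost their call without at least 1 library: PPDK without dark library 2 (0.0592), HXK2 without dark library 1 (0.293), dark library 2 (0.0859) or submerged library 1 (0.351), and UGP1 and iPGAM1 without any 1 of the 4 (0.0612 to 0.136 and 0.177 to 0.231). GAPC2 and LOS2, abundant enzymes of the lower pathway, had adjusted p = 0.0543 and 0.284.

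Most genes of low-oxygen sensing and signalling rose. Of 16 listed genes 10 were higher and none lower by edgeR (at an unadjusted p under 0.05, 10 were higher and 1 lower, and DESeq2 called 10 and 0), with a median of 3.27. Among the transcription factors of group VII, HRE2 had 219 and 84.7 CPM in submerged libraries, against 4.61 and 0.737 CPM in dark libraries (log2 5.95 ± 0.37, and 6.79 without dark library 1). HRE1 had 153 and 304 CPM in submerged libraries, against 13.8 and 24.1 CPM in dark libraries (log2 3.58 ± 0.22, adjusted p = 6.75e-07). RAP2.2 had 288 and 268 CPM, against 105 and 112 CPM (log2 1.35 ± 0.32, adjusted p = 0.0125), and its call was lost without each library in turn (0.132 and 0.0789 without dark library 1 and 2, 0.0671 and 0.056 without submerged library 1 and 2). RAP2.12 and RAP2.3, which are known to be made constitutively and to be controlled through protein stability, were not called, with log2 values of 0.30 ± 0.23 and -0.02 ± 0.26.

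The brakes on the low-oxygen response rose as well. PCO2 and PCO1, the plant cysteine oxidases that mark group VII factors for destruction when oxygen is present, had 339 and 293 CPM (PCO2) and 199 and 224 CPM (PCO1) under submergence, against 22.2 and 8.66 CPM (PCO2) and 27.4 and 11.2 CPM (PCO1) in the dark. Their log2 changes were 4.52 ± 0.43 and 3.57 ± 0.43. HRA1, a trihelix factor that limits RAP2.12, had 107 and 166 CPM in submerged libraries, against 7.86 and 5.9 CPM in dark libraries (log2 4.30 ± 0.52). No range overlapped between conditions in these genes. LBD41, a transcription factor of the core response, had 520 and 803 CPM, against 51 and 21.9 CPM (log2 4.29 ± 0.51, and 3.66 without submerged library 2). SRO5 had 62 and 59.5 CPM, against 1.08 and 2.21 CPM (log2 5.09 ± 0.48, and 5.93 without dark library 2). RBOHD, the plasma membrane oxidase that makes reactive oxygen for signalling, had 121 and 149 CPM, against 15.2 and 19.3 CPM (log2 2.97 ± 0.21, adjusted p = 2.21e-06).

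HB1, a class 1 haemoglobin that removes nitric oxide, was among the most abundant polysomal mRNAs under water. Per kilobase of its model it averaged 4551 CPM in submerged libraries, against 241 CPM in dark libraries. These were ranks 10 and 615 among the tested nuclear protein-coding genes. By library it had 4374 and 3299 CPM in submerged libraries, against 316 and 89.4 CPM in dark libraries (log2 4.56 ± 0.57, adjusted p = 0.000166, and 3.91 without submerged library 2). Without the set term the adjusted p was 0.0641. The most abundant nuclear mRNA in both conditions was MT2B, a metallothionein, at 16908 CPM per kilobase under submergence and 17258 CPM per kilobase in the dark (log2 -0.02, adjusted p = 0.979).

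The authors' deposited workbook holds a list of 50 core hypoxia genes, which is not independent evidence of a direction since it belongs to the same study. Of the 50, 49 were higher and 1 was lower, and they took 2.52% and 2.23% of the nuclear reads in submerged libraries, against 0.175% and 0.141% in dark libraries. The median log2 change was 3.34, and 46 to 49 of the 49 higher calls were kept when 1 library was left out. Members with no assigned name included AT1G19530 (881 and 716 CPM submerged, 10.3 and 16.8 CPM dark, log2 5.95 ± 0.43), AT4G24110 (215 and 274 CPM submerged, 7.05 and 4.24 CPM dark, log2 5.47 ± 0.44) and AT4G39675 (914 and 507 CPM submerged, 32.3 and 16.2 CPM dark, log2 4.89 ± 0.30). The lower member was AT1G04330, with 1.5 and 0.216 CPM in submerged libraries, against 8.95 and 4.24 CPM in dark libraries (log2 -3.00 ± 0.49, adjusted p = 0.00141, and -4.01 without submerged library 1). The choice to name AT1G04330 came after its values were known.

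**Figure D2:**
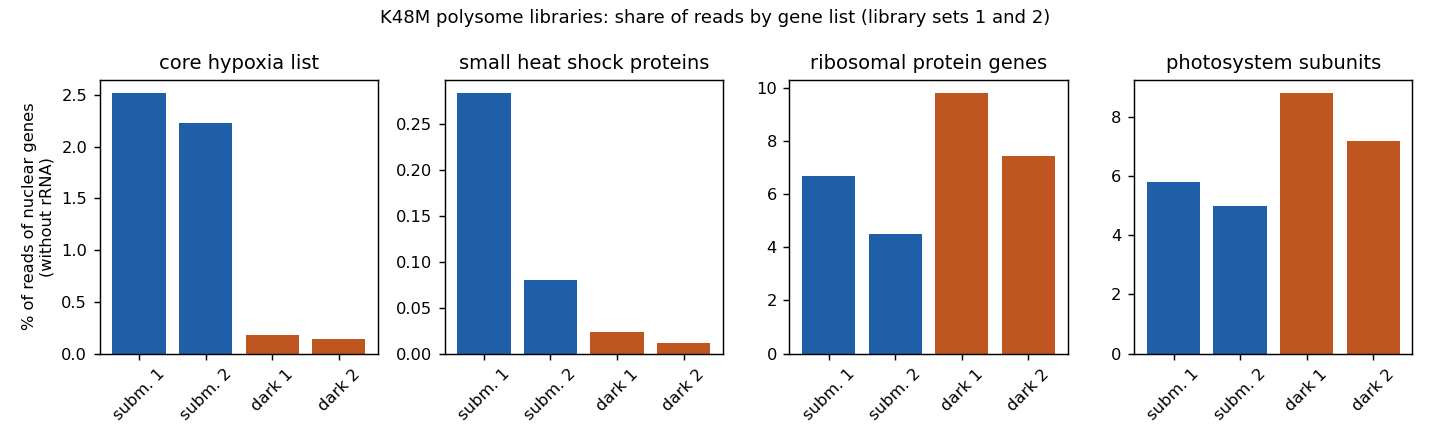
Share of reads of nuclear genes outside rRNA, in percent, taken by 4 gene lists in each K48M polysome library, with submerged libraries 1 and 2 in blue and dark libraries 1 and 2 in orange. The core hypoxia list takes 2.52% and 2.23% under submergence and 0.175% and 0.141% in the dark, and ribosomal protein genes take 6.67% and 4.50% under submergence and 9.82% and 7.45% in the dark.

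Small heat shock proteins, ATP-independent chaperones that hold unfolding proteins in solution, were the list with the highest median. Of 17 genes 16 were higher and none lower by edgeR (at an unadjusted p under 0.05, 16 and 0, and DESeq2 called 16 and 0), with a median log2 change of 3.66. Their reads made up 0.284% and 0.0802% of nuclear reads in submerged libraries 1 and 2, against 0.0233% and 0.0116% in dark libraries 1 and 2. Library 1 was thus higher than library 2 in both conditions, and both submerged libraries were above both dark ones. Leaving out 1 library kept 13 to 15 of the 16 calls, and dropping the set term kept 4. The upstream windows of the 2 called members with the largest change follow, with capitals on the heat shock element core, spelled GAANNTTC or TTCNNGAA, and on the site II element, spelled TGGGCC or TGGGCT, on either strand.

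ATHSP22.0, chr4:6370088-6370337, plus strand: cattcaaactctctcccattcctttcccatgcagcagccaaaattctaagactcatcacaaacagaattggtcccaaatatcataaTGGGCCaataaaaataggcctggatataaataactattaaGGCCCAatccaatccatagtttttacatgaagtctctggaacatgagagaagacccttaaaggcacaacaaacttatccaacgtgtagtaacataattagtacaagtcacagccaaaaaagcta
HSP21, chr4:13819972-13820221, minus strand: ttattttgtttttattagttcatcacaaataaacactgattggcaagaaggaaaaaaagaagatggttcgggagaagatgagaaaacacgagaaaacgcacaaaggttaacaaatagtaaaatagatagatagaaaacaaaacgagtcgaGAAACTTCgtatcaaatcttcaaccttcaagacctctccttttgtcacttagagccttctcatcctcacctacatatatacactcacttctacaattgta

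The HSP21 window holds 1 heat shock element core and no site II element, and the ATHSP22.0 window holds no core of that spelling and 2 site II elements. A core was found in 7 of 17 small heat shock protein windows (41.2%), against 15.7% of all windows, 18.4% of those of genes called higher and 15.3% of those of genes called lower. A site II element was found in 11 of the 17 (64.7%), against 22.6% of all windows. In gene structure, 58.8% of the small heat shock protein genes had a single exon and the median model was 720 bases long, against 13% and 1538 bases for all tested genes.

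ATHSP22.0 (AT4G10250), of the endomembrane system, had 83 and 20.3 CPM in submerged libraries, against 0.271 and 0 CPM in dark libraries, where 1 read was counted, and its ratio of 471 had a counting interval of 84.2 to 18660. HSP21, of the chloroplast, had 138 and 25.7 CPM in submerged libraries, against 0.271 and 0.369 CPM in dark libraries, where 3 reads were counted (ratio 249, counting interval 84.9 to 1210). HSP17.6II, a cytosolic class II protein, had 247 and 43.8 CPM in submerged libraries, against 3.25 and 0.369 CPM in dark libraries (log2 6.29 ± 0.33, adjusted p = 3.44e-07, and 6.99 without dark library 1). All 3 were nearly silent in the dark and several-fold higher in submerged library 1 than in submerged library 2. HSP23.6-MITO, of mitochondria, had 166 and 44.6 CPM, against 1.63 and 0 CPM (log2 7.34 ± 0.52, 10.66 without dark library 1, 7.94 without submerged library 1, and adjusted p = 0.0569 without the set term). HSP17.6A, of the cytosol, had 647 and 147 CPM, against 30.6 and 3.87 CPM (log2 4.81 ± 0.41, adjusted p = 8.83e-06). HSP17.4 had 357 and 76.5 CPM, against 58.6 and 8.48 CPM (log2 2.87 ± 0.35), with submerged library 2 just above dark library 1. The member not called was AT5G54660 (15.4 and 15.5 CPM submerged, 17.9 and 17.7 CPM dark, adjusted p = 0.599). Cytosolic members are close in sequence and reads may be split among them, and with uniquely assigned reads 15 of the 16 calls were kept.

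Of 19 tested genes for larger chaperones 10 were higher and 2 lower, with a median of 0.74. Hsp70b, a heat-inducible HSP70, had 84.3 and 25.4 CPM in submerged libraries, against 3.25 and 2.58 CPM in dark libraries (log2 4.03 ± 0.49, adjusted p = 0.000146). HSP101, the disaggregase of heat tolerance, had 86 and 33.8 CPM in submerged libraries, against 12.5 and 4.24 CPM in dark libraries (log2 2.87 ± 0.30), and HSP90.1 had 195 and 62.7 CPM, against 34.2 and 7.74 CPM (log2 2.75 ± 0.29). The libraries of these 3 genes did not overlap between conditions, and HSP101 and HSP90.1 were not called without the set term (adjusted p = 0.0903 and 0.29). BAG6, a co-chaperone, had 60.5 and 23.3 CPM, against 5.42 and 4.24 CPM (log2 3.03 ± 0.42, and 2.43 without submerged library 1). HSP90.3 (-0.84 ± 0.23, adjusted p = 0.0267) and the endoplasmic reticulum chaperone BIP2 (-0.71 ± 0.22, adjusted p = 0.0456) were lower, and both lost their call without any 1 of the 4 libraries (0.0693 to 0.239 and 0.133 to 0.3). The constitutive HSC70-1, with 753 and 412 CPM submerged and 986 and 567 CPM dark, was not called (adjusted p = 0.312).

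Of 12 tested regulators of the heat shock response 5 were higher and none lower by edgeR (at an unadjusted p under 0.05, 7 and 0, and DESeq2 called 5 and 0). MBF1C, a coactivator needed for heat tolerance, had 97.8 and 21.8 CPM in submerged libraries, against 21.4 and 6.82 CPM in dark libraries (log2 1.97 ± 0.23, adjusted p = 9.13e-05). HSFA2, a heat-induced activator, had 6.65 and 2.37 CPM in submerged libraries, against 1.08 and 0.184 CPM in dark libraries (log2 2.89 ± 0.54, adjusted p = 0.0032), and its call was lost without dark library 1 (0.058). DREB2A (log2 1.77 ± 0.35) lost its call without dark library 1 (0.0886) and had a log2 value of 2.45 without dark library 2. HSFA3 (1.38 ± 0.31) lost it without dark library 2 (0.169) or submerged library 1 (0.0979), and HSFA4A (1.33 ± 0.27) without dark library 2 (0.0891) or submerged library 2 (0.0646). The repressor HSFB1 was not called (log2 0.38 ± 0.25, adjusted p = 0.362). All submerged values of HSFA2 exceeded the dark ones, and those of MBF1C did so by a narrow margin.

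Most listed genes that are known to rise in starvation or downstream of SnRK1 were higher under submergence in the line that overexpresses the K48M kinase. Of 25 genes 17 were higher and none lower by edgeR (at an unadjusted p under 0.05, 18 and 0, and DESeq2 called 17 and 0), with a median of 1.05, and their reads made up 0.942% and 1.49% of nuclear reads in submerged libraries, against 0.301% and 0.863% in dark libraries. Set 2 was higher than set 1 within each condition. ERD5, the proline dehydrogenase, had 186 and 526 CPM in submerged libraries, against 30.4 and 153 CPM in dark libraries (log2 2.19 ± 0.27, adjusted p = 0.000146). IVD, an enzyme of leucine breakdown, had 221 and 298 CPM in submerged libraries, against 52.3 and 107 CPM in dark libraries (log2 1.78 ± 0.25, adjusted p = 0.000416). DIN10, a raffinose synthase family gene induced by dark, had 1374 and 2419 CPM in submerged libraries, against 365 and 906 CPM in dark libraries (log2 1.68 ± 0.27, adjusted p = 0.00127). Their submerged libraries lay above both dark libraries.

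BCAT2, a branched-chain aminotransferase, had 154 and 279 CPM in submerged libraries, against 12.7 and 112 CPM in dark libraries (log2 2.50 ± 0.55, adjusted p = 0.00851). Its call was lost without dark library 1 (0.117) or submerged library 1 (0.117), and its log2 value was 1.52 without submerged library 1, 3.30 without submerged library 2 and 3.10 without dark library 2. MCCA, of leucine breakdown, had 336 and 509 CPM, against 54.5 and 195 CPM (log2 2.07 ± 0.37, adjusted p = 0.0025), with adjusted p = 0.0543 without dark library 1 and a log2 value of 1.43 without submerged library 1. In both genes all submerged values exceeded all dark ones. Class II trehalose phosphate synthase genes TPS8 (1.33 ± 0.22), TPS10 (1.1 ± 0.20), TPS9 (0.90 ± 0.19) and TPS11 (0.75 ± 0.22) were called, and TPS8 alone of them kept its call without each library. TPS10 lost it without dark library 2 (0.0502), TPS9 without dark library 1 (0.1) or submerged library 1 (0.0503), and TPS11 without any 1 of the 4 (0.0569 to 0.331). ASN1, the dark-induced asparagine synthetase, had 219 and 423 CPM submerged, against 22.2 and 262 CPM dark, and was not called (adjusted p = 0.0778). With the set term dropped none of the 17 calls was kept, and 8, 8, 8 and 13 were kept without dark library 1, dark library 2, submerged library 1 and submerged library 2.

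A pair of regulatory subunits of SnRK1 rose beside KIN10. Of 9 genes for subunits and upstream kinases 3 were higher and none lower by edgeR (at an unadjusted p under 0.05, 3 and 0, and DESeq2 called 3 and 0): KIN10, KINbeta1 (197 and 182 CPM submerged, 83.8 and 95.4 CPM dark, log2 1.1 ± 0.27, adjusted p = 0.0162) and KINgamma (424 and 367 CPM submerged, 241 and 226 CPM dark, log2 0.76 ± 0.21, adjusted p = 0.026). Neither range overlapped. KINbeta1 was not called without dark library 1 (0.0965), dark library 2 (0.152) or submerged library 1 (0.194), and KINgamma was not called without any 1 of the 4 (0.0824 to 0.177). KINbeta2 was not called (26.4 and 22.2 CPM submerged, 26.6 and 20.1 CPM dark).

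Of 18 ethylene genes 4 were higher and none lower by edgeR (at an unadjusted p under 0.05, 9 and 0, and DESeq2 called 4 and 0), with a median of 0.57. ACO1, an ACC oxidase of the last step of ethylene synthesis, had 358 and 316 CPM in submerged libraries, against 36.9 and 20.1 CPM in dark libraries (log2 3.61 ± 0.29, adjusted p = 5.5e-06). ETR2, an ethylene receptor, had 117 and 154 CPM in submerged libraries, against 27.1 and 18.2 CPM in dark libraries (log2 2.59 ± 0.39, adjusted p = 0.000779). The oxidase and receptor ranges were far apart. ACS7, an ACC synthase, had 7.08 and 10.1 CPM, against 2.17 and 0.921 CPM (log2 2.58 ± 0.63, adjusted p = 0.0151), and CTR1, the repressor below the receptors, had 93.5 and 118 CPM, against 43.1 and 60.8 CPM (log2 1.03 ± 0.20, adjusted p = 0.00416). The call of CTR1 was lost without dark library 1 (0.0656) and that of ACS7 without dark library 1 (0.0784), dark library 2 (0.154) or submerged library 2 (0.125), with log2 values of 3.22 and 1.88 without submerged library 1 and 2. The abundant oxidase gene ACO4 was not called (373 and 403 CPM submerged, 598 and 386 CPM dark, adjusted p = 0.594).

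Of 10 tested abscisic acid genes 2 were higher and 2 lower. CYP707A3, which degrades abscisic acid, had 11.6 and 17.9 CPM in submerged libraries, against 1.08 and 1.47 CPM in dark libraries (log2 3.5 ± 0.50, adjusted p = 0.000496). NCED3, the rate-limiting enzyme of its synthesis, had 0 and 0.216 CPM in submerged libraries, against 2.98 and 0.737 CPM in dark libraries, with adjusted p = 0.0379. The levels of NCED3 were close to the limit of detection. Its call was lost without dark library 1 (0.301), submerged library 1 (0.352) or submerged library 2 (0.0598), and those of CYP707A1 (log2 1.79, higher) and RD29A (log2 -1.38, lower) without any 1 of the 4 libraries (0.115 to 0.203 and 0.109 to 0.159), with a CYP707A1 value of 2.59 without dark library 2. Of 9 tested gibberellin genes the receptors GID1A (1.37 ± 0.29, adjusted p = 0.00766) and GID1B (0.84 ± 0.22, adjusted p = 0.0219) were higher and the DELLA repressor GAI (-0.71 ± 0.22, adjusted p = 0.0462) lower. The call of GID1A was lost without dark library 1 (0.105) or submerged library 1 (0.0905), and those of GID1B and GAI without any 1 of the 4 (0.0599 to 0.229 and 0.131 to 0.296).

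Of 9 tested growth regulators of auxin and shade 5 were lower and 1 higher, with a median of -1.22. At a minimum count of 50, which leaves out weakly expressed members, the median was -0.20 and 3 of the 5 lower calls were kept. The list took 0.0256% and 0.0268% of nuclear reads in submerged libraries, against 0.0271% and 0.0241% in dark libraries, so that its summed level was not lower under water. Beside PRE1 and IAA29, the lower members were IAA19 (log2 -1.32 ± 0.31), ATHB2 (-1.24 ± 0.26) and HFR1 (-1.22 ± 0.35), and the higher one was PIF5 (1.02 ± 0.21, 102 and 124 CPM submerged, 59.1 and 52.7 CPM dark). Calls were lost for IAA19 without dark library 1 (0.104), dark library 2 (0.0759) or submerged library 2 (0.165), for ATHB2 without dark library 1 (0.132) or submerged library 1 (0.129), for PIF5 without dark library 2 (0.0974) or submerged library 2 (0.061), and for HFR1 without any 1 of the 4 (0.115 to 0.232). The log2 value of IAA19 was -1.97 without submerged library 1. PIF4, a factor of the same family as PIF5, was not called (log2 -0.01 ± 0.24, adjusted p = 0.988).

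Among cell wall loosening genes, lower calls outnumbered higher ones. Of 29 tested xyloglucan endotransglucosylase genes 12 were lower and 2 higher (median -0.98), and of 23 tested expansins 7 were lower and 1 higher (median -0.65). XTH6 had 2.79 and 5.39 CPM in submerged libraries, against 25.8 and 46.4 CPM in dark libraries (log2 -3.13 ± 0.41, adjusted p = 0.00025). XTH4 had 283 and 221 CPM in submerged libraries, against 1185 and 540 CPM in dark libraries (log2 -1.68 ± 0.24, adjusted p = 0.000418). EXP3 had 8.37 and 4.96 CPM in submerged libraries, against 54.5 and 26.3 CPM in dark libraries (log2 -2.57 ± 0.27, adjusted p = 4.67e-05). All of them were lower in both submerged libraries than in either dark one. The exceptions XTR6 (65.6 and 48.1 CPM submerged, 11.4 and 10.3 CPM dark, log2 2.40 ± 0.32) and EXPA10 (57.1 and 32.8 CPM submerged, 7.05 and 10.5 CPM dark, log2 2.2 ± 0.46) were as clearly apart in the other direction. EXPA10 lost its call without dark library 1 (log2 1.58, adjusted p = 0.103) and had a log2 value of 3.08 without dark library 2. The calls kept without 1 library numbered 5 to 9 of the 12 lower xyloglucan endotransglucosylases and 4 to 6 of the 7 lower expansins.

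Aquaporins, water channels of the plasma membrane and vacuole, held the highest riser of the list, NIP2;1, and 4 fallers. Of 28 tested genes 2 were higher and 4 lower (median -0.42), so that 21.4% were called, against 14.2% of all genes. The list took 0.625% and 0.855% of nuclear reads in submerged libraries, against 1.03% and 1.07% in dark libraries. PIP2E had 104 and 89 CPM in submerged libraries, against 294 and 184 CPM in dark libraries (log2 -1.28 ± 0.20, adjusted p = 0.0012). DELTA-TIP, a tonoplast channel, had 416 and 604 CPM in submerged libraries, against 1622 and 1106 CPM in dark libraries (log2 -1.38 ± 0.29, adjusted p = 0.00695). Both were lower in each submerged library than in either dark one, and the call of DELTA-TIP was lost without dark library 1 (0.0865) or submerged library 1 (0.126). RD28 was higher (81.7 and 50 CPM submerged, 25.2 and 22.5 CPM dark, log2 1.41 ± 0.28), with adjusted p = 0.0946 without dark library 1.

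A part of the genes for photosynthesis was lower. Of 21 light-harvesting genes 7 were lower and none higher by edgeR (at an unadjusted p under 0.05, 12 and 0, and DESeq2 called 8 and 0), and of 25 photosystem subunits 8 were lower and none higher (18 and 0 at an unadjusted p under 0.05, and 16 and 0 by DESeq2). Their medians were -0.63 and -0.67. LHCB2.3, an antenna protein of photosystem II, had 81.7 and 84.9 CPM in submerged libraries, against 739 and 249 CPM in dark libraries (log2 -2.35 ± 0.40, adjusted p = 0.00176). LHCB2.2 had 910 and 509 CPM in submerged libraries, against 3925 and 1143 CPM in dark libraries (log2 -1.61 ± 0.29, adjusted p = 0.00252, and 0.0567 without submerged library 1). PSBP-1, of the oxygen-evolving complex, had 2920 and 1758 CPM in submerged libraries, against 7677 and 3931 CPM in dark libraries (log2 -1.28 ± 0.26, adjusted p = 0.00537). These genes were lower in both submerged libraries, and dark library 1 was the highest of the 4. PSBP-1 lost its call without dark library 1 (0.0595), dark library 2 (0.0546) or submerged library 1 (0.0779). Leaving out 1 library kept 1 to 5 of the 7 light-harvesting calls and 0 to 3 of the 8 photosystem calls, and dropping the set term kept none of either. The small subunit of Rubisco RBCS3B, rank 3 per kilobase under submergence and rank 2 in the dark, was lower (log2 -0.94, adjusted p = 0.0383).

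Of 11 genes of chlorophyll synthesis 5 were lower and none higher by edgeR (at an unadjusted p under 0.05, 6 and 0, and DESeq2 called 5 and 0), with a median of -0.63. PORB, a protochlorophyllide reductase that needs light, had 164 and 135 CPM in submerged libraries, against 460 and 467 CPM in dark libraries (log2 -1.62 ± 0.24, adjusted p = 0.000567). PORA, the form known from seedlings before they green, had no reads in either submerged library, against 2.71 and 2.03 CPM in dark libraries, so that it was at least 7.14-fold lower at a floor of 3 counts over the group (adjusted p = 0.0098). PORC had 33 and 33.2 CPM in submerged libraries, against 77.5 and 74.8 CPM in dark libraries (log2 -1.20 ± 0.27, adjusted p = 0.00986). The reductases were all lower without overlap. PORA lost its call without dark library 2 (0.0597) or submerged library 1 (0.109), and PORC without any 1 of the 4 (0.0671 to 0.106).

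Of 13 clock genes 5 were higher and none lower by edgeR (at an unadjusted p under 0.05, 7 and 0, and DESeq2 called 4 and 0). PRR7, a repressor of the morning loop, had 71.4 and 143 CPM in submerged libraries, against 30.1 and 66.9 CPM in dark libraries (log2 1.18 ± 0.21, adjusted p = 0.00229), and PRR5 had 36.9 and 136 CPM, against 9.22 and 55.6 CPM (log2 1.67 ± 0.31, adjusted p = 0.00284). Set 2 was higher than set 1 in both conditions, and submerged library 1 of PRR5 was below dark library 2. Both calls were lost without dark library 2 (0.058 and 0.0662). CCR2, an evening gene, showed the same set difference (326 and 1275 CPM submerged, 402 and 2327 CPM dark) and was not called (adjusted p = 0.179). The sources used here do not say at what time of day each set was harvested.

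**Figure D3:**
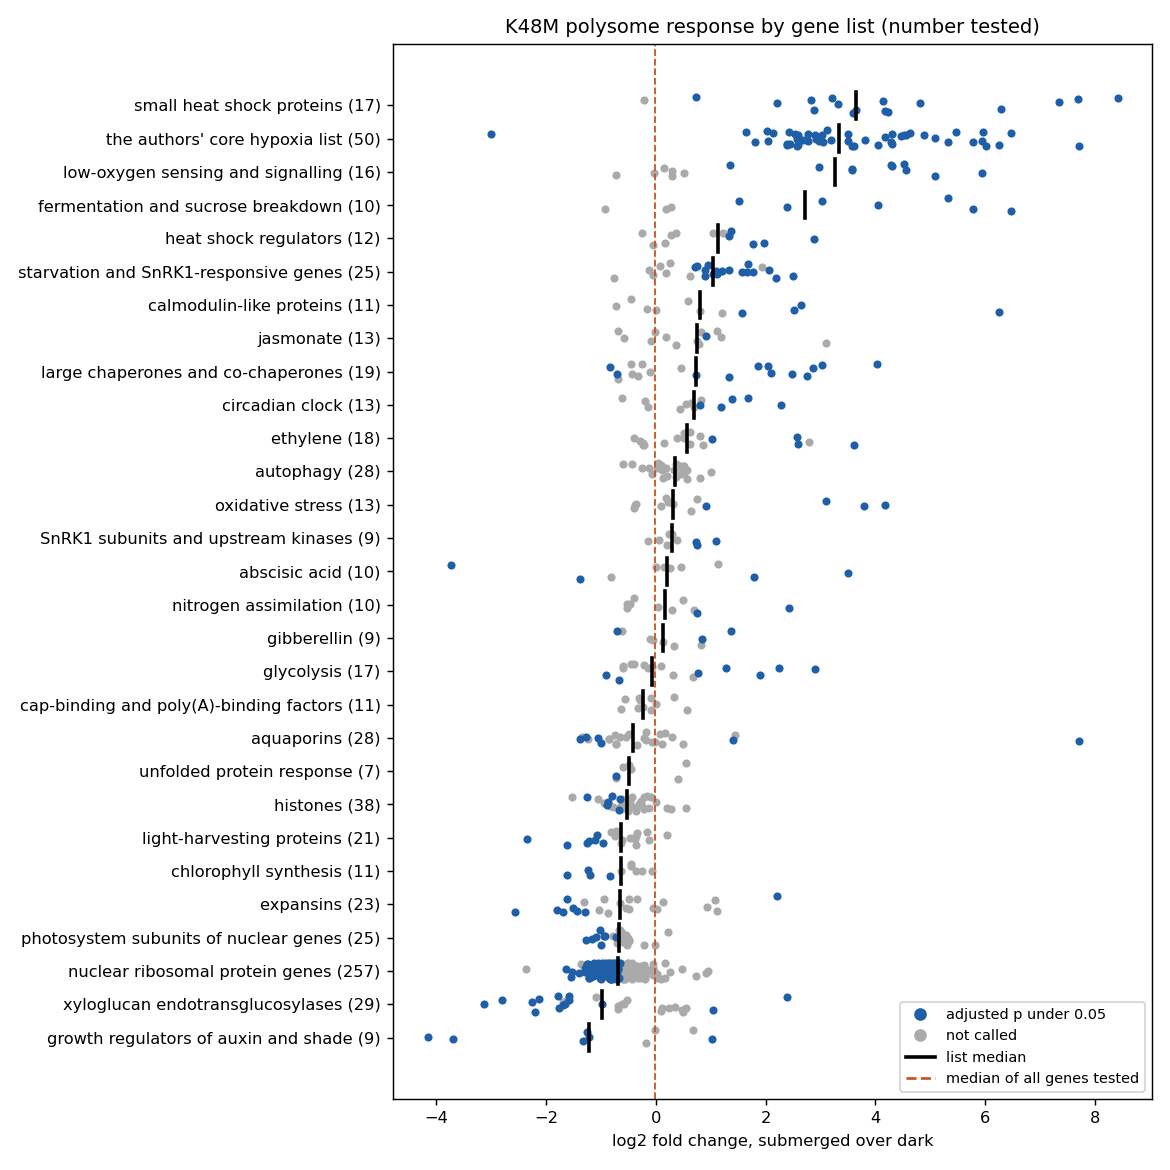
Log2 fold change, submerged over dark, of every tested member of 29 gene lists in K48M polysome RNA; blue points passed an adjusted p of 0.05, grey points did not, black bars are list medians and the dashed line is the median of all genes, -0.01. Small heat shock proteins (median 3.66), the core hypoxia list (3.34) and low-oxygen signalling (3.27) lie farthest to the right, and growth regulators (-1.22) and xyloglucan endotransglucosylases (-0.98) farthest to the left; PORA, with no submerged reads, is not drawn.

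Ribosomal protein genes, the largest list tested, held the most lower calls in number. By share, 43.2% of them were called lower, against 6.35% of all genes and 45.5% of the smaller chlorophyll synthesis list. Of 281 nuclear genes for ribosomal proteins 257 passed the filter, and 247 of these had a log2 value below 0, against 50.5% of all genes tested. By edgeR 111 (43.2%) were called lower and none higher (at an unadjusted p under 0.05, 187 lower and 2 higher, and DESeq2 called 127 and 0). The list median was -0.69, within -0.76 to -0.62 under the other scalings and with each library left out. Their reads fell to 6.67% and 4.50% of nuclear reads in submerged libraries, against 9.82% and 7.45% in dark libraries. The share was lower under submergence within each set, with submerged library 1 just below dark library 2. In 121 of the 257 genes both submerged libraries lay below both dark ones, against 22.9% of all genes tested. Of the 111 calls, 24, 10, 8 and 26 were kept without dark library 1, dark library 2, submerged library 1 and submerged library 2, and none without the set term. The upstream windows of the 2 called members with the largest fall whose window overlaps no other gene follow, with capitals on the site II element, which is known from promoters of ribosomal protein genes.

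AT5G47700, chr5:19328987-19329236, minus strand: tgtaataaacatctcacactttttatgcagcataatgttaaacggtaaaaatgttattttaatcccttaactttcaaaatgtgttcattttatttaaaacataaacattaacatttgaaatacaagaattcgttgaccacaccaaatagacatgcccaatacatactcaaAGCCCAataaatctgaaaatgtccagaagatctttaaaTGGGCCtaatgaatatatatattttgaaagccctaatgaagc
AT4G25890, chr4:13160566-13160815, minus strand: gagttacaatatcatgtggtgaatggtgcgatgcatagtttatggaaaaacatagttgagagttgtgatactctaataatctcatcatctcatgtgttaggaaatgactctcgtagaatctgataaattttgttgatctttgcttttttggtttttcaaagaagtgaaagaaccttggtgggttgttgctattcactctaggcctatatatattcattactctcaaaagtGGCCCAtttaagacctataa

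AT5G47700 and AT4G25890 encode acidic proteins of the 60S stalk, which contacts translation factors. AT5G47700 had 463 and 185 CPM in submerged libraries, against 1487 and 560 CPM in dark libraries (log2 -1.64 ± 0.27, adjusted p = 0.00151). AT4G25890 had 177 and 78 CPM in submerged libraries, against 471 and 243 CPM in dark libraries (log2 -1.53 ± 0.24, adjusted p = 0.000987). Both kept their call without each library, in neither did the ranges overlap, and neither was called without the set term (0.432 and 0.384). Their windows hold 2 and 1 site II elements. The element was found in 163 of 257 ribosomal protein windows (63.4%), against 24.3% of the windows of genes called lower, 14.1% of those of genes called higher and 22.6% of all. The telo-box AAACCCTA, absent from both printed windows, was found in 41 of the 257 (16%), against 3.43% of all windows. Ribosomal protein models had a median length of 837 bases, against 1154 bases for genes called lower and 1538 bases for all tested genes.

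Of 11 genes for cap-binding and poly(A)-binding factors, none was called in the main edgeR fit or by DESeq2. At an unadjusted p under 0.05 in edgeR, 0 were higher and 2 lower, and the median was -0.24. PAB2, a poly(A)-binding protein, had 358 and 383 CPM submerged, against 544 and 362 CPM dark, and eIF4A1, the helicase of initiation, had 352 and 348 CPM submerged, against 381 and 360 CPM dark, with adjusted p = 0.576 and 0.851. Histones, whose mRNAs mark dividing cells, had 6 of 38 tested genes lower and none higher by edgeR, 15.8% called against 14.2% of all genes. At an unadjusted p under 0.05 in edgeR, 19 were lower and 1 higher, and DESeq2 called 7 and 0. The histone median was -0.52. The histone H3 gene AT5G10390 had 20.6 and 14.2 CPM in submerged libraries, against 43.1 and 38.7 CPM in dark libraries (log2 -1.26 ± 0.26, adjusted p = 0.00539), a call lost without dark library 2 (0.0877), submerged library 1 (0.0569) or submerged library 2 (0.0572). Histone copies are near-identical, so that the split of reads among them is uncertain.

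The same comparison in Col-0 polysomes called 2093 genes (11.1%). Col-0 dark library 1 was the shallowest of the fit, with 3749306 gene reads, 38.12% of them rRNA, and had the lowest TMM factor, 0.558. Col-0 dark library 2 had 5149197 gene reads and 2.34% rRNA. Every difference from Col-0 given here rests in part on dark library 1. No gene differed in its response between K48M and Col-0 at an adjusted p of 0.05, by edgeR or by DESeq2, and 236 of 18794 (1.26%) had an unadjusted p under 0.05 in edgeR. Medians by list were 3.34 in K48M and 3.4 in Col-0 for the core hypoxia list, 2.72 and 2.95 for fermentation, 1.05 and 0.93 for starvation genes, and -0.69 and -0.53 for ribosomal proteins. For light-harvesting proteins they were -0.63 in K48M and -0.33 in Col-0, and for photosystem subunits -0.67 in K48M and -0.44 in Col-0. The K48M minus Col-0 difference was below 0 in 21 of 21 light-harvesting, 23 of 25 photosystem and 218 of 257 ribosomal protein genes. It was below 0 in 50.3% of all genes tested. The medians of these 3 lists were -0.32, -0.22 and -0.18, with no member at an unadjusted p under 0.05 in edgeR. Members of a list were measured in the same libraries, so counts of their signs are not independent observations. For small heat shock proteins the medians were 3.66 in K48M and 3.16 in Col-0, the difference was above 0 in 15 of 17 genes with a median of 0.93, and 3 of the 17 had an unadjusted p under 0.05. HSP17.6II, the member with the smallest p, had 247 and 43.8 CPM submerged and 3.25 and 0.369 CPM dark in K48M, against 123 and 26.9 CPM submerged and 5.74 and 1.36 CPM dark in Col-0 (difference of log2 changes 1.94 ± 0.52, adjusted p = 1). Its K48M libraries were higher than those of Col-0 under water and lower in the dark, within both sets. AT1G23840, of unknown function, had 14.6 and 5.17 CPM submerged and 0.542 and 0.369 CPM dark in K48M, against 9.06 and 3.4 CPM submerged and 3.35 and 1.19 CPM dark in Col-0 (difference 2.83 ± 0.76, adjusted p = 1). The other genes with the smallest p were AT5G62370 (difference 3.17 ± 0.72), MIR398c (-2.58 ± 0.60), LpxC1 (-1.59 ± 0.40) and AT5G01881 (3.25 ± 0.90), all at 31.3 CPM or lower and all with adjusted p = 1. KIN10 had a difference of 0.79 ± 0.29 (adjusted p = 1).

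In K48M total mRNA, with 1 library per condition that the fit assumed to vary like the others, 999 genes (5.32%) were called. No gene differed between the polysomal and the total response at an adjusted p of 0.05, by edgeR or by DESeq2, and 558 (2.97%) had an unadjusted p under 0.05 in edgeR. The median of ribosomal proteins was -0.69 in polysomes and -0.16 in total mRNA. The difference was below 0 in 227 of 257 ribosomal protein genes, against 49.1% of all genes tested. Of the 257, 50 (19.5%) had an unadjusted p under 0.05 in edgeR. AT5G02610, of the ribosomal L29 family, had 95.9 and 49.6 CPM submerged and 214 and 110 CPM dark in polysomes, against 128 CPM submerged and 104 CPM dark in total mRNA (difference -1.45 ± 0.33, adjusted p = 1). AT3G53740, of the L36e family, had 368 and 199 CPM submerged and 687 and 404 CPM dark in polysomes, against 444 CPM submerged and 351 CPM dark in total mRNA (difference -1.30 ± 0.34, adjusted p = 1). In both genes the polysomal level was lower under water and the total level was not. AT2G32650, a cupin family gene, showed the same pattern (difference -1.75 ± 0.37, adjusted p = 1). The other genes with the smallest p were AFO, a YABBY transcription factor (1.41 ± 0.37), and UGT73C7 and AT5G01881, which had no reads in the submerged total library and 2.35 CPM or lower in the dark one. The core hypoxia list had medians of 3.34 in polysomes and 3.14 in total mRNA, and small heat shock proteins 3.66 in polysomes and 3.87 in total mRNA.

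**Figure D4:**
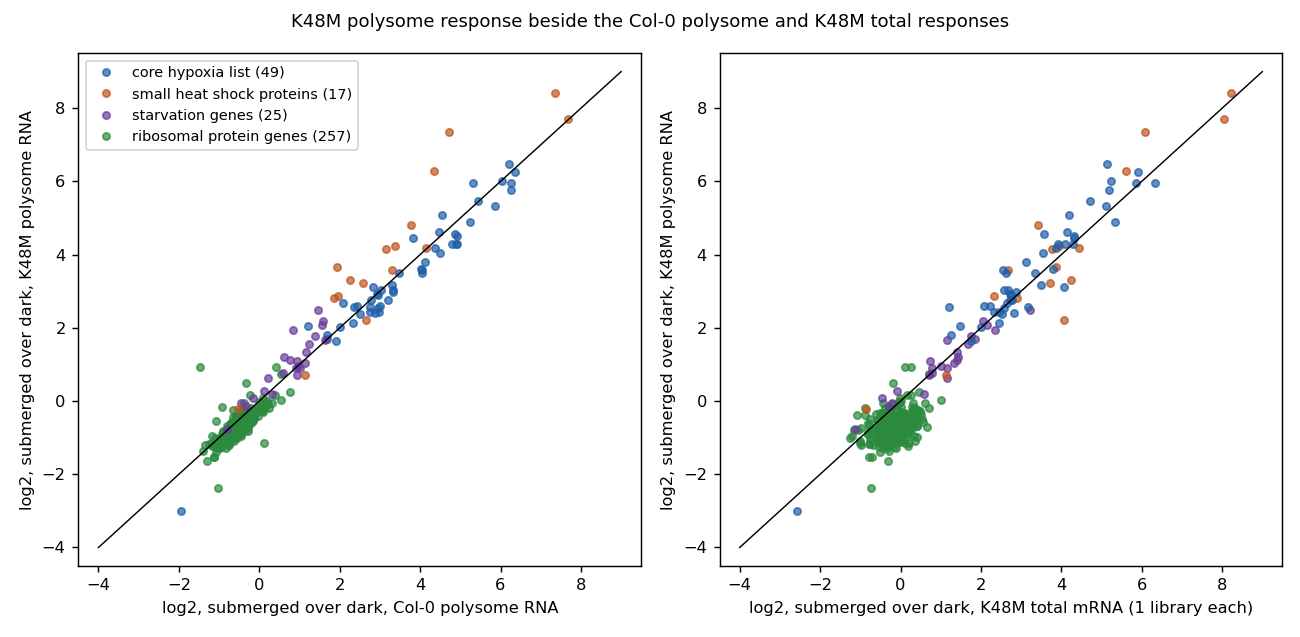
Log2 fold change, submerged over dark, in K48M polysome RNA (vertical axis) against that in Col-0 polysome RNA (left) and in K48M total mRNA (right, 1 library per condition), for members of 4 gene lists, with the line of equal change. Most ribosomal protein genes (227 of 257) lie below the line in the right panel, with list medians of -0.69 in polysomes and -0.16 in total mRNA. The gene NIP2;1, with no Col-0 dark reads, is not drawn.

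Genes of the organelle genomes gave no stable value in these libraries. None of the 62 tested chloroplast and 25 tested mitochondrial genes was called in the main edgeR fit or by DESeq2. None had an unadjusted p under 0.05 in edgeR, and their medians were 0.54 and 0.28. The share of organelle reads was 0.27% and 6.72% in submerged libraries, against 2.08% and 1.07% in dark libraries, and moved with the rRNA share. The chloroplast median was -2.47 without submerged library 2, the library with 13.12% rRNA, and 1.87 without submerged library 1. Scaling without rRNA and organelle genes left 1482 higher and 1177 lower calls among all genes.

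The authors' deposited table tested transcript models and not genes, with an EDGE test. By the authors' deposited table, 409 of 41660 models (0.982%) had an FDR under 0.05, 333 (0.799%) higher and 76 (0.182%) lower. A higher model was present for 316 genes in the authors' deposited table, of which 314 (99.4%) were also called higher by edgeR, 21.3% of all such calls. A lower model was present for 76 genes in the authors' deposited table, of which 73 (96.1%) were also called lower by edgeR, 6.11% of all such calls. The authors' deposited table gave folds of 85.8 for PDC1, 54.7 for ADH1, 223 for ATHSP22.0 and 83.3 for HSP17.6II, and signed folds of -12.3 for IAA29 and -16.7 for PRE1. For the first model of AT5G47700 the authors' deposited table gave a signed fold of -3.14 with an FDR of 0.296, and no ribosomal protein model passed there.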

How the data were processed

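Per the file headers, the authors trimmed read pairs and deposited total and unique gene read counts per transcript model, with the model's length. Per the submitters' processing notes the build was TAIR10; the aligner and strand setting are not given in the sources used for this work. Per the file headers, the authors also deposited a signed fold score and an FDR from an EDGE test. The authors' deposited workbook adds log2 ratios, which lay a median of 1.30 below log2 of the EDGE fold over 8387 models and were not used for results.

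Counts of 41660 models were summed to 33592 genes. The 11 rows that name no gene, at most 0.0084% of reads, were left out, and 0 columns belonged to samples outside the series. A pair of K48M total libraries (2 columns) was not used because their labels and file headers disagree. Genes passed a filter of a minimum count of 10 and a minimum total of 15. edgeR 4.0.16 in R 4.3.3 fitted 14 libraries in 8 groups with TMM scaling (factors 0.558 to 1.312), a term for the library set and 5 residual degrees of freedom, by the quasi-likelihood test with Benjamini-Hochberg adjustment over 18794 genes. Every adjusted p here comes from edgeR unless DESeq2 (1.42.0) is named. The biological coefficient of variation was 18.8%. The set term was part of the definition of this comparison and was not chosen from the data. Same-numbered libraries deviated together in all 15 pairs of groups (r = 0.32 to 0.65, and 0.55 for the K48M polysome pair). These values describe a difference between the sets that the groups share. They cannot show that single dark and submerged samples were paired. On simulated counts for this comparison with 18794 genes, 80% of genes changed 4-fold, 15% of those changed 2-fold and 0.0% of unchanged genes were called. The simulation changed far fewer genes than the 2668 called in the data. The Benjamini-Hochberg cutoff depends on that number, so these shares need not hold for the data.

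Read shares have exact binomial 95% intervals of at most 0.038 percentage points to either side; these and the counting intervals of ratios cover counting error only. P-values of the main fit measure the spread between libraries that is left after the library set term, taken over all groups with replicates. A difference shared by all libraries of a set is not part of that spread. The K48M total groups, which have no replicate in the fit, add nothing to it. The 2 libraries of each K48M polysome group come from independent repeats. Named genes were the 12 largest rises and falls with libraries that did not overlap and at least 10 CPM in the higher group, up to 4 called members and 2 uncalled members per list, KIN10 and eIFiso4G1, and the 6 genes with the smallest p in each difference. The members and lists were chosen, and the family patterns narrowed, with earlier results of these data known. Promoter windows are the 250 bases before the start in RefSeq's TAIR10.1. A gene that the rule for named genes gives is not reported here. Alternatives changed the set term, the libraries, tool, scaling, filter, reads counted and each library in turn.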

Additional observations from a re-analysis of the deposited data

How the results depend on the processing

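The counts of 1474 higher and 1194 lower genes were 408 and 103 without the replicate block (the library set term), 2702 and 2697 from the 4 K48M polysome libraries alone, and 2311 and 2068 from the 8 polysome libraries; for these the cause was not tested. With 1 library left out they ranged between 609 and 899 higher and between 204 and 493 lower, with fewer samples in each fit. DESeq2 called 1246 and 1032, and upper quartile scaling 1293 and 1492, with 46.4% of calls higher against 55.2% in the main analysis and a median over all genes of -0.08. The other scalings, filters and the unique reads stayed within 1.5 times of the main counts. Some lists without a call in the main fit had calls from the 4 K48M polysome libraries alone, where more genes were called in all. These were 8 autophagy genes, 2 cap-binding and poly(A)-binding factors, 3 chloroplast genes and 2 mitochondrial genes. No difference between K48M and Col-0 or between polysomal and total RNA was called without the replicate block, with DESeq2, with unique reads or with any 1 of the 4 K48M polysome libraries left out, the alternatives run for these. Of 145 named genes, 67 lost their call without the replicate block, 15 of 129 with unique reads and 8 with DESeq2. TCH3 (adjusted p = 0.0785), THAS1 (0.0875) and RAP2.2 (0.373) were among those lost with unique reads. None of the named genes that were called changed direction. The uncalled genes that did were PIF4 (0.00 without the filter), HSC70-1 (0.04 with unique reads) and, over the fits that leave out 1 library, PIF4 (-0.35 to 0.30), CAB2 (-0.48 to 0.21), RAP2.3 (-0.17 to 0.16), eIF4A1 (-0.21 to 0.07), PAB2 (-0.57 to 0.08), ACO4 (-0.67 to 0.08), KINbeta2 (-0.06 to 0.22), UGT73C7 (-0.20 to 1.0) and AT5G01881 (-0.22 to 1.28), all as log2 values. The depth left 1 to 3 dark reads, summed over the dark libraries, in several of the largest rises, so that their size is poorly fixed.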

Other observations

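Some genes of the oxidative response and of calcium sensing were higher. Of 13 tested oxidative stress genes 4 were higher and none lower by edgeR (5 and 0 at an unadjusted p under 0.05, and 3 and 0 by DESeq2), with a median of 0.32, and the list took 0.445% and 0.42% of nuclear reads in submerged libraries, against 0.404% and 0.43% in dark libraries. ZAT12, a zinc finger protein of the oxidative response, had 139 and 52.2 CPM in submerged libraries, against 8.13 and 4.79 CPM in dark libraries (log2 3.78 ± 0.27, edgeR adjusted p = 2.49e-06). ZAT10 had 37.1 and 47 CPM in submerged libraries, against 5.15 and 4.79 CPM in dark libraries (log2 3.09 ± 0.28, edgeR adjusted p = 1.41e-05). Both were higher without overlap. Of 11 tested calmodulin-like genes 4 were higher and none lower by edgeR (5 and 0 at an unadjusted p under 0.05, and 4 and 0 by DESeq2). Beside CML38 these included TCH3, a touch-induced calcium sensor, with 576 and 633 CPM in submerged libraries, against 78.4 and 121 CPM in dark libraries (log2 2.65 ± 0.41, edgeR adjusted p = 0.000915, and 0.0785 with unique reads).

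In other lists, 20% of nitrogen assimilation, 14.3% of unfolded protein response and 7.69% of jasmonate genes tested were called, against 14.2% of all genes. Of 10 nitrogen assimilation genes 2 were higher and none lower by edgeR (3 and 2 at an unadjusted p under 0.05, and 2 and 0 by DESeq2). Of 13 tested jasmonate genes 1 was higher, JAZ9 (19.7 and 34.5 CPM submerged, 11.7 and 16.8 CPM dark, edgeR adjusted p = 0.0464), a call lost without any 1 of the 4 libraries (0.0685 to 0.403) and not made by DESeq2. Of 7 tested genes of the unfolded protein response 1 was lower, SDF2 (57.7 and 33.6 CPM submerged, 93.3 and 56.8 CPM dark, edgeR adjusted p = 0.0233), a call lost without any 1 of the 4 libraries. None of 28 tested autophagy genes was called in the main edgeR fit or by DESeq2, with 6 higher at an unadjusted p under 0.05 in edgeR.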
